A study of Gallus gallus with 8 samples.

Results

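Heterophils are the granulocytes of birds and the counterpart of the mammalian neutrophil. Their granules hold cathelicidins, avian beta-defensins, lysozyme and proteases, while myeloperoxidase, the oxidant-generating enzyme of mammalian neutrophil granules, is lacking. In a density gradient, lymphocytes, monocytes and thrombocytes collect at the interface, and granulocytes and most red cells sink below it. The 6 genes described here are MMP9, S100A12, CATH2, LYGL, RSFR and CSF3R. They were taken as genes known from heterophils, and every feature of the array that resolved to one of them was kept. The choice was made with earlier results of these data known, and the loss of MMP9 from PBMC was its starting point. The values of MMP9, and those set against it, are therefore a description.

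The 6 genes are 6 of 7097 genes that could be named on the array, and they were measured by 19 of 60539 different probes. MMP9 (gene number 395387) and CSF3R (419620) had 4 probes each, RSFR (423668) had 5, and S100A12 (426356), CATH2 (420407) and LYGL (418700) had 2 each. All 19 probes passed the filter on dim signals. The probes of S100A12 carry the older name S100A9 on the array, which the reference lists as a synonym. Both probes of LYGL carry the symbol LYG2 in their name beside the gene number of LYGL, and some probes of RSFR carry ANG, so these assignments rest on the gene number. No genome positions are given, because the array headers and the reference table name different genome builds.

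RNA came from whole blood and from peripheral blood mononuclear cells (PBMC). The same 4 male broilers, 9 weeks old and reared on a conventional diet, gave both, with 4 arrays per group. PBMC were prepared by Ficoll Histopaque centrifugation directly after bleeding, and RNA was extracted with TRIzol. The labels name no further treatment, and the replicate number of a sample is that of its bird. A level is the log2 signal minus the log2 75th percentile of its array, so 0 equals that percentile, and levels are compared only within a probe. Differences are PBMC minus whole blood on the log2 scale.

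The arrays had 64.4 to 72.1% of their features well above background, and their 75th percentiles ranged from 663.4 to 846.0 intensity units. Of all 41901 probes tested with limma, 79.8% differed between PBMC and whole blood at an adjusted p under 0.05. Among 5560 named genes, each represented by its probe with the highest mean, 38.2% were lower and 41.9% were higher in PBMC, and the median difference was 0.10. Against this background, 2 of the 6 genes were lower, 2 were higher and 2 did not pass the test, with a median difference of 0.03. These shares depend on the scaling. When each array was scaled to 8 T cell genes, an alternative chosen after seeing the data, 1.67% of the probes that passed were higher in PBMC, against 50.6% with the 75th percentile. In bulk samples, fewer cells of a type and less RNA per cell cannot be told apart.

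The cell type markers moved as follows, against 38.2% lower and 41.9% higher among all named genes. All 8 T cell, all 5 B cell and all 3 monocyte markers tested were higher in PBMC, as were 5 of 6 thrombocyte markers, and all 11 red cell markers were lower, with a median difference of -3.42. One of the 11, ALAS1, entered as the reference's match for ALAS2. In the same way, SH2D6 entered the B cell markers for BLNK, and TREMB2 the thrombocyte markers for TREML2. JCHAIN, a B cell marker, was well above background on 1 of 4 whole blood arrays and entered the test through PBMC. The summed red cell signal still lay between 295.5 and 751.9 times the 75th percentile in PBMC, against 2675 to 2969 times in whole blood. The summed monocyte signal rose from 3.02 to 6.50 times the 75th percentile in whole blood to 19.7 to 35.0 times in PBMC. CD14, a defining monocyte marker, stayed below the background limit on all 8 arrays. Of the markers of basophils, mast cells and eosinophils, 1 was lower (IL5RA), 1 was higher (FCER1G) and 1 did not pass the test (GATA2). Their sum was 17.5 to 20.1 in whole blood and 21.3 to 42.3 in PBMC. It was carried by GATA2 and FCER1G, at mean levels of 3.73 and 2.37 in whole blood and 4.08 and 3.79 in PBMC. IL5RA, at -3.49 and -5.32, added little to it. Each sum given here adds signals of different probes, so it follows the brightest of them.

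MMP9 encodes gelatinase B, a secreted protease that cleaves denatured collagen and is stored in granules. Its brightest probe read 1.13, 1.75, 1.75 and 2.86 in whole blood of birds 1 to 4. In PBMC of the same birds the probe read -6.12, -3.24, -4.08 and -4.65. The groups lay far apart, with every PBMC value below every whole blood value. The difference was -6.40 ± 0.59 (SE, n = 4 per group, limma adjusted p = 8.9e-06), which leaves 1.19% of the whole blood signal. The probe was well above background on 3 of the 4 PBMC arrays, and the other probes on 2 of 4, so the low side rests on signals close to the background. All 4 MMP9 probes thus entered the test through whole blood, the group where they were high. The p and the 1.19% carry that limit. The other 3 probes gave -5.80, -5.81 and -6.23. Among the 5560 named genes, 14 (0.252%) had a more negative difference than MMP9, a rank that also rests on the dim PBMC signals.

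The size of the MMP9 difference depended on how background was treated. It was -4.79 with normexp background correction and -5.27 in the authors' processed values, which carry no background correction, and in both it remained past the threshold. Within the slide rows, which each held both groups of 2 birds, it was -6.25 in row 1 (birds 2 and 4) and -6.54 in row 2 (birds 1 and 3). Each column of the slide held arrays of 1 group, so column and group cannot be told apart.

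S100A12 is the chicken relative of the mammalian calgranulins, calcium-binding proteins that phagocytes release at sites of inflammation. In whole blood its brightest probe read 2.14, 3.12, 3.80 and 3.78 in birds 1 to 4. In PBMC it read -2.44, 1.12, 2.32 and -0.09. The groups overlapped, since PBMC of bird 3 lay above whole blood of bird 1, yet PBMC was the lower sample in each of the 4 birds. The differences within birds were -4.58, -2.0, -1.48 and -3.86. The mean difference was -2.98 ± 0.90 (SE, adjusted p = 0.0128), or 12.7% of the whole blood signal, and the second probe gave -3.10.

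The PBMC level of S100A12 varied strongly between birds. Its SD over the 4 PBMC arrays was 2.03, larger than that of 99.8% of all probes tested, against a median SD of 0.257. The monocyte sum in these arrays was 19.7, 23.3, 35.0 and 27.4 in birds 1 to 4, lowest in the bird with the lowest S100A12 and highest in the bird with the highest. The T cell sum, at 308.4, 316.5, 406.3 and 376.1, had the same lowest and highest birds, and the B cell sum the reverse. In the monocyte and T cell sums, birds 2 and 4 stood in the opposite order to S100A12. The red cell sum was 551.2, 630.4, 295.5 and 751.9 in birds 1 to 4. The part of any of these cell types in the S100A12 result was not tested. The difference was -2.93 in slide row 1 and -3.03 in row 2, where it did not pass the test (adjusted p = 0.165). Without bird 4 it was -2.69 (adjusted p = 0.0695), while it was -2.09 without the PBMC array of bird 1 and -3.68 without that of bird 3. With the bird as a block, the S100A12 difference was -2.98 ± 0.50 (SE, limma adjusted p = 9.2e-04).

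**Figure D1:**
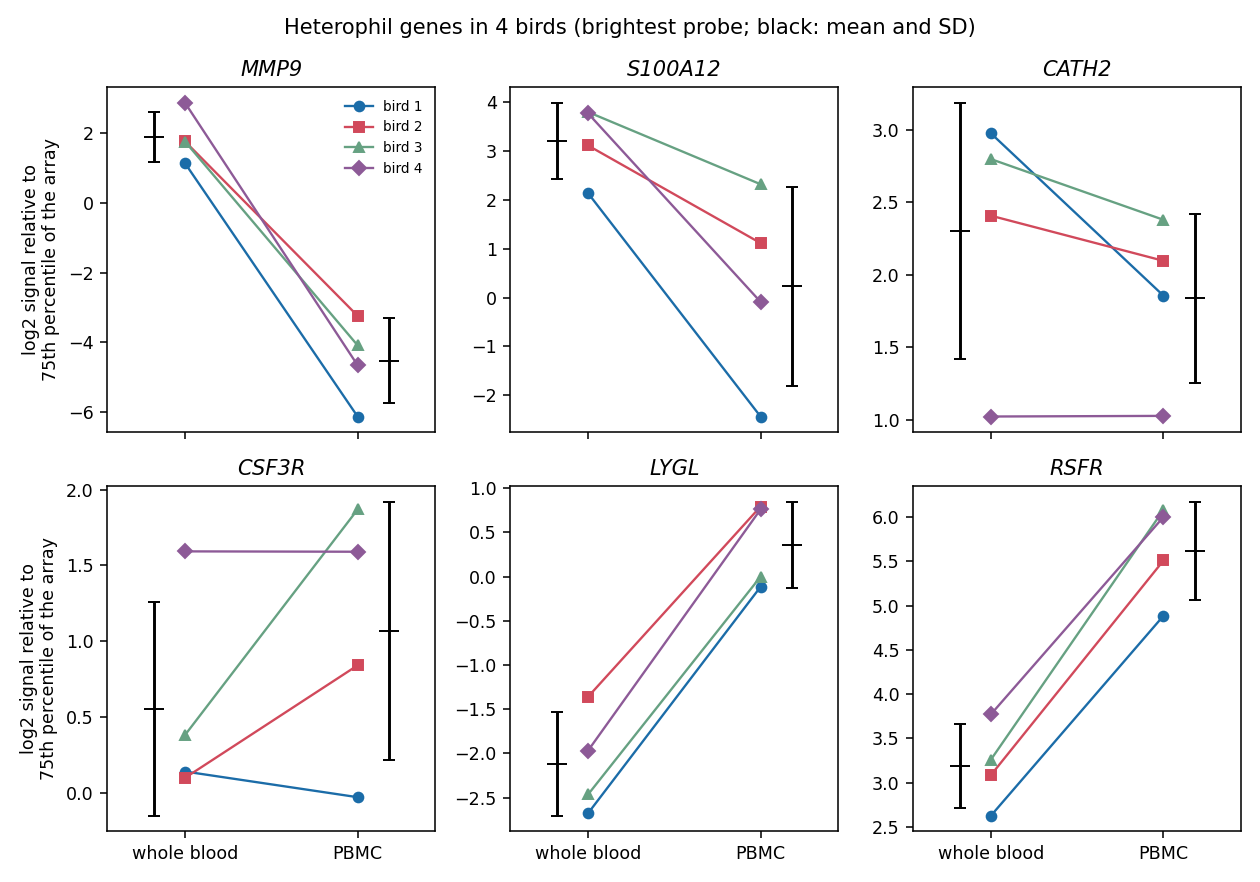
Log2 signal over the array's 75th percentile (y axis) of the brightest probe of each gene in whole blood and PBMC (x axis), with 1 line per bird and the mean and SD of each group in black; the y axes differ between panels. MMP9 falls in every bird to between -6.12 and -3.24, LYGL and RSFR rise in every bird, and CATH2 and CSF3R show lines that stay level in bird 4.

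CATH2 encodes a cathelicidin, a cationic peptide of heterophil granules that kills bacteria. Its brightest probe read 2.98, 2.41, 2.80 and 1.02 in whole blood and 1.86, 2.10, 2.38 and 1.03 in PBMC of birds 1 to 4. The groups overlapped, and bird 4 was the lowest of both groups, with nearly equal values in its samples. The difference was -0.46 ± 0.45 (SE, 95% confidence interval -1.48 to 0.56, adjusted p = 0.362). The second probe gave -0.70 (adjusted p = 0.16) and was lower in PBMC in 4 of 4 birds. With the bird as a block, the second probe passed the test (adjusted p = 0.00674) and the first did not (adjusted p = 0.0654).

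The CATH2 value moved with single arrays. The difference was -0.89 without the whole blood array of bird 4 (adjusted p = 0.0326) and -0.62 without bird 4 altogether (adjusted p = 0.0372). Without the PBMC array of bird 4 it was -0.19 (adjusted p = 0.709), and without the whole blood array of bird 1 it was -0.24 (adjusted p = 0.655). It was -0.15 in slide row 1, which holds bird 4, and -0.77 in row 2 (adjusted p = 0.0498). The CATH2 difference was smaller in size than that of MMP9 in every setting that gave a value for both genes.

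CATH1, which lies next but one to CATH2 in the reference's gene order and encodes another cathelicidin, was lower in PBMC. It read 3.22, 2.93, 3.18 and 2.82 in whole blood and 1.14, 1.40, 1.68 and 0.60 in PBMC. The groups did not overlap, and bird 4 had the lowest value of each. The difference was -1.83 ± 0.23 (SE, adjusted p = 7.1e-05). A dimmer probe of CATH1 gave -0.57 (adjusted p = 0.193), so the probes of this gene disagree in size. CATH3 and CATHB1, the remaining cathelicidin genes in the reference, were not matched to a probe.

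The avian beta-defensins are antimicrobial peptides, several of which are stored in heterophil granules. Of 10 genes tested, 6 fell in PBMC, AvBD10 rose and 3 missed the threshold, and the median difference was -1.0. Among all named genes, 38.2% were lower and 41.9% higher. DEFB4A, the reference's symbol for the gene listed as AvBD2, read 3.37, 3.12, 3.18 and 1.62 in whole blood and 0.51, 1.47, 0.93 and -0.43 in PBMC. All PBMC values lay below all whole blood values, by a mean of -2.20 ± 0.48 (SE, adjusted p = 0.00224). AvBD6 fell by 1.68, AvBD4 by 1.53 and AvBD5 by 1.41 on the log2 scale. The remaining defensins are named with their values known. AvBD7 (-1.22) and AvBD9 (-0.48) also passed as lower, AvBD10 was higher (0.90), and AvBD1 (-0.78), AvBD8 (-0.21) and AvBD13 (0.23) did not pass.

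The defensin calls varied in stability. AvBD6 lost its call in 7, AvBD7 in 9 and AvBD9 in 11 of 24 alternatives, whereas AvBD5 passed in all 23 that could be computed. For AvBD6 these were slide row 1 alone and the fits without bird 1, 2 or 3, without the whole blood array of bird 1 or 3, and without the PBMC array of bird 4 (adjusted p from 0.054 to 0.13). AvBD7 lost its call without the same arrays and birds, in slide row 1 alone, and with quantile normalization (-0.96) and cyclic loess (-0.98). AvBD9 lost its call without bird 1 or 2, without 5 of the 8 single arrays, in either slide row alone, with normexp correction (-0.18) and in the authors' values (-0.32). AvBD8 passed as lower with quantile normalization (-0.52), cyclic loess (-0.68) and median scaling (-0.52). AvBD5 was -0.56 with normexp correction and -0.74 in the authors' values. The alternative it lacks is the filter that keeps only probes above background on all 8 arrays. Its signal cleared the background limit in whole blood of all 4 birds, but in PBMC of only 3. AvBD5 thus entered the test through whole blood, the group where it was high, and its stable call carries that limit. DEFB4A (-1.85), AvBD4 (-1.25), AvBD10 (0.70), LYG2 (-1.52) and LECT2 (-1.40) did not pass in slide row 1 alone. AvBD1 passed as lower in 5 of 24 alternatives. These were the bird as a block (adjusted p = 0.00806), median scaling (-1.08) and slide row 2 alone (-1.15). The others were the fits without the whole blood array of bird 4 (-1.21) and without bird 4 altogether (-0.96). In the main fit, 2 of its 7 probes passed. For AvBD7 the other 2 probes gave -2.28 and -2.26, larger than the brightest one.

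Bird 4 stood low for many defensins. In whole blood it had the lowest value for 7 of the 10 defensins tested and in PBMC for 8 of 10. Over 5532 named genes measured on every array, bird 4 was lowest in 29.4% in whole blood and in 22.6% in PBMC. AvBD1, for example, read 3.57, 3.30, 3.58 and 1.76 in whole blood and 2.27, 2.74, 2.57 and 1.52 in PBMC. In contrast, bird 4 had the highest whole blood value for MMP9 and RSFR, and for CSF3R. These counts were chosen after the values were seen and are a description.

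LYGL and LYG2 are neighbouring genes for goose-type lysozymes, enzymes that cut the bacterial cell wall, and their probes moved in opposite directions. LYGL read -2.68, -1.36, -2.47 and -1.97 in whole blood of birds 1 to 4 and -0.12, 0.79, -0.00 and 0.76 in PBMC. Every PBMC value exceeded every whole blood value. The difference was 2.48 ± 0.33 (SE, adjusted p = 9.9e-05), a 5.57-fold higher signal, and the second probe gave 2.39. Within slide rows it was 2.44 and 2.51.

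LYG2 read -1.41, -1.95, -1.46 and -3.43 in whole blood and -3.75, -3.52, -4.07 and -4.90 in PBMC. PBMC was lower in each bird, and the groups did not overlap. The difference was -2.0 ± 0.47 (SE, adjusted p = 0.00352), and it was -1.20 with normexp background correction. The probes of LYGL carry the symbol LYG2 in their name, so the names of this pair rest on the gene number and accession. LYZ, the chicken-type lysozyme, gave -0.12 at its brightest probe, which did not pass the test, while 2 dimmer probes were lower in PBMC, at -1.93 and -1.09.

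RSFR encodes a leukocyte ribonuclease of the RNase A superfamily. Its brightest probe read 2.63, 3.09, 3.26 and 3.77 in whole blood and 4.89, 5.51, 6.08 and 6.0 in PBMC. The groups were fully separate, with PBMC the higher sample in each bird. The difference was 2.43 ± 0.32 (SE, adjusted p = 8.5e-05), a 5.39-fold higher signal. Of the other 4 probes, 3 gave 2.43 to 2.50. Among these 3, probe 4 (2.50) had values close to those of RNASE6, given below. The remaining probe, number 5, was well above background on 0 of 4 whole blood arrays and entered the test through PBMC. On the scale of the 75th percentile, probe 5 was at least 3.46-fold higher in PBMC. For this bound, the mean signal of the 4 PBMC arrays was set, per whole blood array, against the detection limit or the probe's signal, whichever was higher. Its difference was 0.41 with normexp correction and 0.51 in the authors' values, both smaller than that bound. Within slide rows the brightest probe gave 2.32 and 2.54.

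RNASE6, the gene before RSFR in the reference's order and another member of the same superfamily, was also higher in PBMC. RSFR probe 4, which carries ANG in its name, read -1.69, -0.67, -0.83 and -0.77 in whole blood. In PBMC it read 0.88, 1.63, 2.24 and 1.28. These values lie close to those of the RNASE6 probe on every array, so the 2 results may not be separate. Whether both probes read 1 transcript was not tested. RNASE6 read -1.78, -0.83, -1.01 and -0.90 in whole blood and 0.71, 1.50, 2.13 and 1.14 in PBMC. The groups did not overlap, and the difference was 2.50 ± 0.32 (SE, adjusted p = 8.1e-05).

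CSF3R is the receptor for granulocyte colony-stimulating factor, the cytokine that drives granulocyte production. Its brightest probe read 0.14, 0.10, 0.38 and 1.59 in whole blood and -0.03, 0.84, 1.87 and 1.59 in PBMC. The groups overlapped, and birds 1 and 4 had nearly equal values in both samples. The difference was 0.51 ± 0.47 (SE, 95% confidence interval -0.54 to 1.57, adjusted p = 0.329). The other probes gave 0.43, 0.10 and 0.13, and the smaller of these turned sign with the scaling and with single arrays. Within slide rows the brightest probe gave 0.37 and 0.66.

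CSF3, which encodes that cytokine, was lower in PBMC. It read -1.73, -2.35, -2.75 and -3.0 in whole blood and -4.16, -4.22, -4.57 and -4.38 in PBMC. The groups did not overlap, and the difference was -1.88 ± 0.26 (SE, adjusted p = 1.4e-04), or -0.92 with normexp correction. The ligand and its receptor thus differed in whether they passed the test, and the difference between them was not tested.

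**Figure D2:**
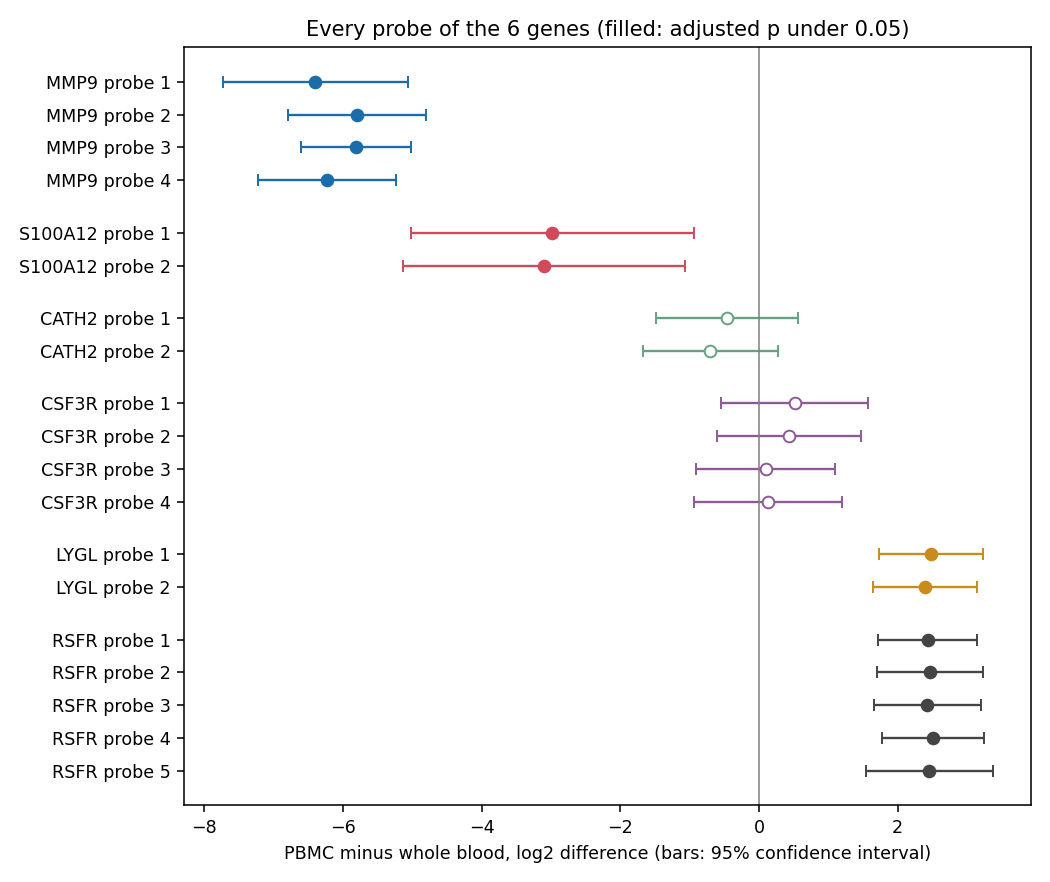
Log2 difference between PBMC and whole blood (x axis) with its 95% confidence interval from limma for each of the 19 probes (y axis), 4 arrays per group; filled points passed an adjusted p of 0.05. Probes of the same gene lie together, from -6.40 for MMP9 to 2.50 for RSFR, and the CATH2 and CSF3R intervals cross 0.

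Whether the other genes shared the loss of MMP9 was asked within birds, by subtracting each bird's MMP9 difference from that of the other gene. S100A12 lay 3.41 ± 0.75 above MMP9 (SD, n = 4 birds), CATH2 5.93 ± 1.21 and CSF3R 6.91 ± 0.80. LYGL lay 8.87 ± 1.42 and RSFR 8.82 ± 1.05 above it. These spreads depend on the MMP9 probe, here the brightest, whose PBMC signals were close to background. Its differences within birds 1 to 4 were -7.25, -4.99, -5.83 and -7.51. Those of MMP9 probe 4 were -5.37, -6.02, -7.08 and -6.44. All 5 genes were above MMP9 in 4 of 4 birds. Of the 5560 named genes, only 14 (0.252%) had a more negative mean difference than MMP9. A place above MMP9 is therefore not particular to these 5 genes. The exact two-sided sign-flip test gave p = 0.13 for each, which is the smallest value 4 birds allow, so this test cannot reach 0.05. A scaling by 1 constant per array cancels in these differences between genes.

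Once the group means were removed, some of the genes varied together among birds and others did not. The deviations of CSF3R and RSFR correlated at r = 0.94 over the 8 arrays, and those of MMP9 and S100A12 at 0.83. Across these pairs, S100A12 had r = 0.78 with RSFR and 0.72 with CSF3R. MMP9 had r = 0.71 with RSFR and 0.67 with CSF3R, although their differences between PBMC and whole blood were unlike. The r values of MMP9 rest on its brightest probe, whose PBMC signals were close to background. The other MMP9 probes ordered the PBMC birds otherwise. Probe 4 read -5.64, -5.74, -6.63 and -4.91 in PBMC of birds 1 to 4. Probe 3 had an SD of 0.27 there, against 1.21 at the brightest probe. LYGL and RSFR, which rose by a like amount, had r = 0.35, and CATH2 had negative values with CSF3R (-0.52), RSFR (-0.52) and LYGL (-0.45). These are descriptions over 8 arrays that share birds and slide.

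The wider lists of granulocyte genes were described by counts. Of 111 genes listed in 8 groups, 58 had a named probe and 46 were tested. In PBMC 10 were lower, 26 were higher and 10 did not pass, and the median difference was 1.04, against 38.2% lower and 41.9% higher among all named genes. These shares are also the background for the counts of each single list that follows. Of these 10 lower genes, 9 were antimicrobial proteins or defensins, and the remaining one was CSF3. With the T cell scaling, 32 of the 46 were lower and none was higher. On that scale the background also moved, to 32173 lower and 545 higher of all 41901 probes.

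Of 6 granule and secreted antimicrobial proteins, 3 were lower, none was higher and 3 did not pass, with a median of -0.98. Beside CATH1 and LYG2, LECT2, the avian counterpart of which is known as the myeloid protein MIM-1 of granulocyte precursors, was lower. It read 3.16, 2.94, 3.12 and 1.30 in whole blood and 0.76, 1.30, 0.89 and 0.14 in PBMC, with bird 4 again lowest in each group. The whole blood value of bird 4 equalled the highest PBMC value to 2 decimals. The difference was -1.86 ± 0.43 (SE, adjusted p = 0.00307), and the other 3 probes gave -1.77 to -1.82. LYZ, TF (0.26), a transferrin entered as the reference's match for LTF, and EXFABP (0.11), a lipocalin that binds bacterial siderophores, did not pass. OLFM4 was well above background on none of the PBMC arrays and was at least 2.42-fold lower there, without a test.

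In the matrix metalloproteinase list, 3 of 4 were higher, namely MMP2 (2.26 ± 0.24 SE, 1.48 with normexp correction), another gelatinase, and the inhibitors TIMP2 (2.17) and TIMP3 (1.87). MMP16 did not pass (-0.14). All 4 S100 genes other than S100A12 were higher, with S100A13 at 2.78, S100A11 at 2.49, S100A10 at 1.63 and S100A6 at 1.53. S100A6 lies 3 genes from S100A12 in the reference's order. S100A12 thus stood opposite to all 4 other S100 genes tested, and MMP9 to MMP2, the only metalloproteinase in the list that passed. This contrast depended on the scaling. With the T cell scaling, S100A6 (-0.89, limma adjusted p = 0.0073) and S100A10 (-0.80, adjusted p = 0.0082) passed as lower, as S100A12 did. S100A11, S100A13 and MMP2 (-0.17) did not pass with that scaling.

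Of 6 genes for receptors and ligands of granulocyte growth and recruitment, 5 were higher and CSF3 was lower. CSF2RB, one of the 5, gave 1.48, but 0.20 with normexp correction (adjusted p = 0.206) and 0.18 in the authors' values (adjusted p = 0.463), where it did not pass. Its probe was well above background on 1 of 4 whole blood arrays, so it entered the test through PBMC, the group where it was high. CXCR4, the receptor that holds granulocytes in the marrow in mammals, rose by 2.36, or 1.62 with normexp correction. TREMB1, a receptor of the TREM family, rose by 2.16, and ITGB2, the shared chain of the leukocyte integrins, by 2.01. IL8L2, a chemokine of the interleukin-8 family, was not well above background in any whole blood array. By group means it was at least 5.44-fold higher in PBMC, where 3 of 4 arrays measured it. In PBMC of birds 1 to 4 it read -2.96, -5.44, -2.06 and -5.99 (SD 1.90). Birds 1 and 3 thus carried the bound, which does not hold for each bird.

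The list for the phagocyte NADPH oxidase, the enzyme complex that makes superoxide, named 7 genes, of which 5 had a probe. All 5 were higher in PBMC, against 41.9% of all named genes. RAC2, the GTPase of the complex, differed by 2.32, HVCN1, a proton channel, by 2.22, NCF4 by 1.96 and CYBB by 1.05. NCF1C (0.47) lost its call in 5 of 24 alternatives, namely the authors' values (0.30), median scaling (0.17), slide row 1 alone (0.24) and without bird 1 (0.42) or 3 (0.37). With the T cell scaling, CYBB (-1.38), NCF1C (-1.96) and NCF4 (-0.46) passed as lower, and RAC2 (-0.11) and HVCN1 (-0.20) did not pass. Of 7 transcription factors of granulocyte precursors, 5 were higher and 2 did not pass. GFI1 rose by 2.89, RUNX1 by 2.73, SPI1 by 1.73 and LEF1 by 1.25. CEBPA (1.03) lost its call in 5 of 24 alternatives, namely cyclic loess (0.69), median scaling (0.73), slide row 2 alone (1.16) and without bird 2 (1.06) or 3 (0.84). The value of GFI1, whose whole blood signal was dim, was 0.76 with normexp correction. GFI1 was well above background on 2 of 4 whole blood arrays, so it entered the test through PBMC, the group where it was high. Of 4 leukotriene and annexin genes, PLA2G4A, a phospholipase that frees arachidonic acid, rose by 2.55. LTA4H, an enzyme of leukotriene B synthesis, rose by 2.30 and ANXA1 by 2.04, while ALOX5 did not pass (0.46, adjusted p = 0.422). It passed with the bird as a block (adjusted p = 0.0405), was -0.00097 with cyclic loess, and was lower in PBMC with the T cell scaling (-1.97, adjusted p = 0.0036).

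Markers of the other white cells rose by like amounts. The median difference was 2.15 over the T cell markers, 2.49 over the B cell markers, 2.64 over the monocyte markers and 1.98 over the thrombocyte markers, close to the 2.48 of LYGL and the 2.43 of RSFR. The part of any of these cell types in the LYGL and RSFR results, or in those of the wider granulocyte lists, was not tested. The lists name genes by a role in granulocytes, and a place on them does not show which blood cells gave the signal.

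**Figure D3:**
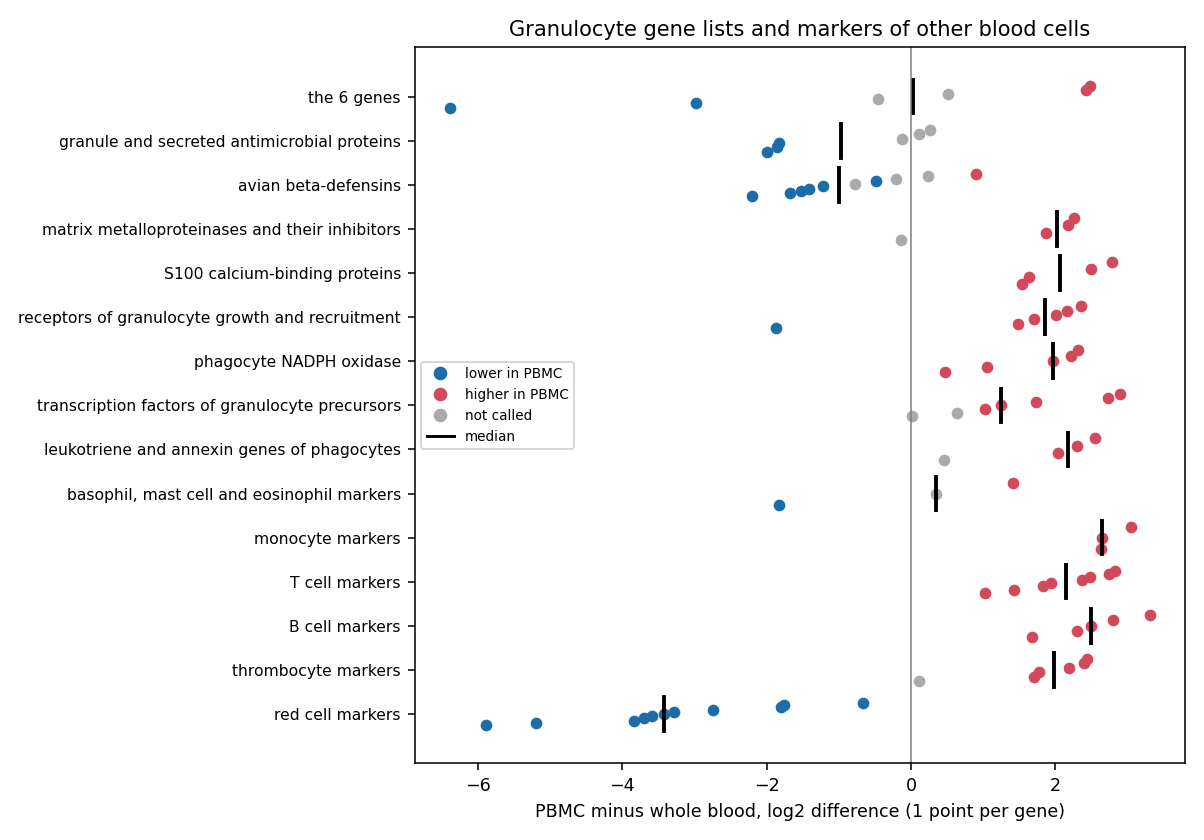
Log2 difference between PBMC and whole blood (x axis) for each tested gene of the lists (y axis), coloured by whether it passed an adjusted p of 0.05, with the list median as a black bar. Points of the antimicrobial lists and red cell markers lie mostly below 0, while the oxidase, S100, T cell, B cell and monocyte lists lie above it.

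For each gene, the 3 named genes most like it in pattern were taken by Pearson's r over the 8 arrays, among 5662 genes. The arrays share birds and the group difference, so r is a description, and the r of deviations from the group means follows in brackets. MMP9 was most like NUMA1, r = 0.996 (0.967), FAM102A, r = 0.994 (0.905), and VPS26B, r = 0.992 (0.881). For MMP9, r rests on the brightest probe, whose PBMC signals were close to background and whose order of birds there the other probes did not share. NUMA1, which organises the spindle poles in dividing cells, differed by -1.46, FAM102A by -1.32 and VPS26B, a retromer subunit, by -3.04, all smaller than MMP9. S100A12 was most like TRAFD1, r = 0.968 (0.948), GABRR1, r = 0.967 (0.934), and CKMT1B, r = 0.965 (0.922), whose differences were -0.42, -1.54 and -0.64.

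CATH2 was most like AvBD1, r = 0.959 (0.978), which is itself a heterophil granule peptide. GLS2, a glutaminase, followed at r = 0.946 (0.939) and KIFC1, a kinesin, at r = 0.940 (0.938). The differences of these genes were -0.78, -0.16 and -0.88, and none passed the test. CSF3R was most like TF, r = 0.978 (0.988), CEBPB, r = 0.967 (0.981), and LOC426093, r = 0.953 (0.955). CEBPB encodes a transcription factor of myeloid cells. It read 0.42, 0.32, 0.68 and 1.60 in whole blood and 0.73, 1.04, 2.04 and 1.73 in PBMC, a difference of 0.63 that did not pass (adjusted p = 0.134). It passed with the bird as a block (adjusted p = 0.029) and without the whole blood array of bird 4 (adjusted p = 0.0278). With the T cell scaling it passed in the opposite direction (-1.79, adjusted p = 1.2e-04).

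LYGL was most like AGK, r = 0.994 (0.955), GPR146, r = 0.990 (0.937), and IL21R, r = 0.989 (0.936), the receptor of a lymphocyte cytokine. RSFR was most like KCNB2, r = 0.998 (0.992), CCR2, r = 0.997 (0.981), and SLC24A2, r = 0.997 (0.977). CCR2, the chemokine receptor of monocytes and a marker in the monocyte list, read -5.13, -4.40, -4.15 and -3.83 in whole blood and -2.09, -1.55, -0.74 and -0.95 in PBMC. Its order of birds in each group was that of RSFR, and its difference was 3.05 ± 0.36 (SE, adjusted p = 4.1e-05), or 1.93 with normexp correction.

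The direction of the 6 genes was read against the scaling. Under the 24 alternatives listed for the brightest probes, MMP9 ranged from -6.86 to -4.79, S100A12 from -3.68 to -2.09 and CATH2 from -0.89 to -0.10. CSF3R ranged from 0.19 to 0.88, LYGL from 2.06 to 2.73 and RSFR from 2.13 to 2.97. Scaling each array to 8 T cell genes moved the median of all probes by -2.43 and every member with it. On that scale MMP9 differed by -8.82, S100A12 by -5.41, CATH2 by -2.89 and CSF3R by -1.91, all past the threshold. LYGL (0.05) and RSFR (0.00) did not differ from the T cell genes beyond the error of the fit (SE 0.34 and 0.26). CATH2 was below 0 on every scale but passed the test on some of them only, and CSF3R turned from above to below 0 with the T cell scaling. The order of the 6 genes by their difference stayed as MMP9, S100A12, CATH2, CSF3R and then LYGL and RSFR.

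**Figure D4:**
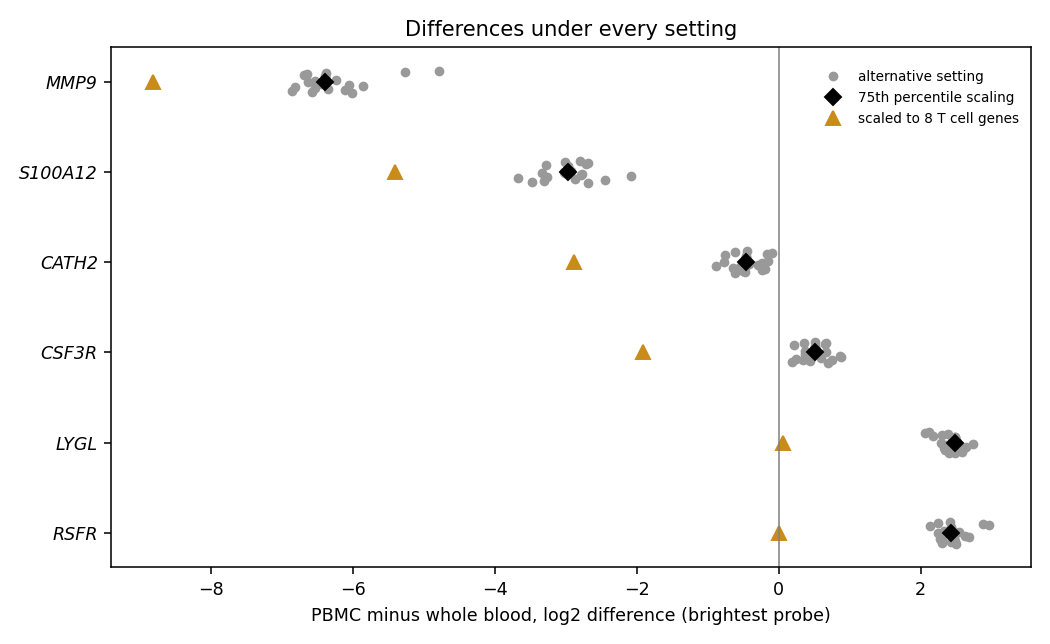
Log2 difference between PBMC and whole blood of the brightest probe (x axis) for each gene (y axis) under the 75th percentile scaling (diamond), up to 24 alternative settings (grey points) and scaling to 8 T cell genes (triangle). Grey points lie on the diamond's side of 0 for every gene. They spread from -6.86 to -4.79 for MMP9 and from -3.68 to -2.09 for S100A12. The triangles lie 2.43 below the diamonds, at -2.89 for CATH2, -1.91 for CSF3R and close to 0 for LYGL and RSFR.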

How the data were processed

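RNA of 8 samples was hybridised to single-colour (Cy3) Agilent arrays of a custom chicken design on 1 slide with 1 scan date. Spot intensity values were deposited after background subtraction and detrending within each array by Agilent Feature Extraction, per the file headers (version 10.7.3.1; the submitters' processing notes name 10.7.1.1). The deposited table of the authors' processed values holds 46154 features and equals the log2 median spot signal minus a constant per array, with no background correction found and column medians of 0. Its direction across arrays is that of the signal.

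From the array files, 1319 control spots and outlier spots (0 to 64 per array) were left out, and spots of the same probe were averaged, giving 60539 probes. Values are log2 processed intensity minus the array's 75th percentile. No probe was saturated. Probes were tested where all 4 arrays of either group read them well above background, with limma 3.58.1 in R 4.3.3 (lmFit and eBayes, Benjamini-Hochberg over all 41901 probes, threshold 0.05). The script was tested on simulated data. The number of arrays limits the precision.

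Names came from the RefSeq table of assembly GRCg7b by accession (10812 probes), gene number (5139) or symbol in the probe name (1718), so that 29.2% of the probes were named. The headers name build galGal3, so no coordinates are given. No sequences were used here.

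The members and lists were chosen with earlier results of these data known. Each gene is shown by its brightest probe, by the mean over the 8 arrays. Named genes are all members, up to 4 passing genes with the largest difference from each list, and the 3 genes most correlated with each member (well above background on at least 4 arrays); others are said to be named with values known. A bound is given where no array of a group was well above background. The birds pair the samples, since the same animals gave both. Deviations from group means correlated within birds at 0.44, 0.47, 0.35 and 0.42, and between birds at 0.05 at most. The fit without the block is the main one. Alternatives were background correction (normexp, offset 50), the authors' values, quantile, cyclic loess and median scaling, other filters, 1 feature per gene, bird and slide row as blocks, each row alone, each array or bird left out, and, added after seeing the data, scaling to 8 T cell genes.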

Additional observations from a re-analysis of the deposited data

Results flagged for a closer look

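Of 38 sets of 4 arrays tested (19 probes in each group), 3 held an array far from the other 3, where chance flags about 1 in 20. In whole blood, bird 4 was high at CSF3R probe 3, at -1.53, while the other birds read -3.07, -2.89 and -3.15. It was also high at CSF3R probe 4, at -1.58, against -3.13, -3.27 and -3.01. Bird 1 was low at RSFR probe 4 in whole blood, at -1.69, against -0.67, -0.83 and -0.77. The CSF3R probes share the bird, and the other CSF3R probes had their highest whole blood value in the same bird.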

How the results depend on the processing

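No alternative other than the T cell scaling turned the direction of the brightest probe of a member. Among genes of the wider lists that did not pass, LYZ, TF, EXFABP, AvBD13, MMP16, CEBPZ and ALOX5 changed sign in at least 1 alternative. Some of them passed in others. EXFABP (0.88) and MMP16 (-0.61) passed with cyclic loess, and CEBPZ with quantile normalization (0.46) and cyclic loess (0.38). AvBD13 passed without bird 3 (0.45) and without the PBMC array of bird 3 (0.39). The dim CSF3R probes 3 and 4, which did not pass, turned to -0.0617 and -0.0155 with the authors' values, -0.18 and -0.15 with quantile normalization, -0.31 and -0.29 with cyclic loess and -0.21 and -0.18 with median scaling. Probe 3 was -0.23 in slide row 1 alone. Leaving out arrays or birds gave -0.28 to 0.48 at probe 3 and -0.16 to 0.51 at probe 4. 1 member was called lower when only probes above background on all 8 arrays were kept, since MMP9 then drops out. The wider lists held 3 lower genes in slide row 1 alone, a fit of fewer arrays. With the T cell scaling, 32173 features were lower and 545 higher, 4 members lower and 0 higher, and 32 list genes lower and 0 higher. There CSF3R probes 1 to 4 gave -1.91, -1.99, -2.33 and -2.30, LYGL probe 2 gave -0.0337 and RSFR probe 3 gave -0.00065. Median scaling moved the median of all probes by -0.30 and the authors' values by -0.16. The replicate block (bird) gave 34673 differing features, against 33442, and changed calls only as given above for CATH2, AvBD1, CEBPB and ALOX5 among the members and the list genes. Signals near background limit MMP9 in PBMC.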

Other observations

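The gene order around LYGL held differences of both signs, which were looked up after the values of LYGL were seen. LIPT1, a lipoate transferase 3 genes before LYGL, differed by 2.56 (PBMC minus whole blood), with whole blood at -2.98 ± 0.12 and PBMC at -0.41 ± 0.23 (SD, n = 4). TXNDC9, a thioredoxin-like protein 3 genes after it, differed by -4.53, from 4.18 ± 0.60 to -0.35 ± 0.20 (SD, n = 4). Near CSF3R, MEAF6, a subunit of histone acetyltransferase complexes, differed by -2.40, with 6.20 ± 0.11 in whole blood and 3.80 ± 0.10 in PBMC (SD, n = 4). ZC3H12A, a ribonuclease that limits inflammation, differed by -0.39 (limma adjusted p = 0.0486) and STK40, a kinase-like protein, by 0.76 (adjusted p = 0.0174).

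IL5RA, the eosinophil receptor for interleukin 5, was the marker of other granulocytes that fell, by 1.83 on the log2 scale (-0.68 with normexp correction). It entered the test through whole blood, the group where it was high.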
